A study of Homo sapiens with 12 samples.

Results

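The genes described here are 51 genes of the lysosome, chosen by name from a list of 15 subunits and accessory proteins of the vacuolar proton pump (V-ATPase, ATP6 names) and 36 lysosomal hydrolases, hydrolase cofactors and membrane proteins. All 51 were found as rows of the gene count table, which has 58307 rows that name a gene, and no symbol was repeated. They were measured by RNA sequencing of polyA-enriched libraries from A375 and SK-MEL-28, established human malignant melanoma cell lines grown as cultures. Each line was treated with etoposide, a topoisomerase II inhibitor that breaks DNA, or with etoposide + rapamycin, in which rapamycin, an inhibitor of the mTORC1 kinase, served to induce autophagy. There were 3 libraries in each of the 4 groups, 12 in all, and every library, controls included, had received etoposide, so the comparison of treatments shows what rapamycin adds to etoposide. Doses and treatment times of the sequenced cells are not given in the sources used here.

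The lysosome is the acidic organelle in which material delivered by autophagy and endocytosis is broken down. The V-ATPase acidifies it: its cytosolic V1 sector hydrolyses ATP, and its membrane-embedded V0 sector passes protons into the lumen. Proteases, glycosidases, sulfatases and lipid hydrolases then digest the contents, and membrane proteins protect the membrane and carry products out. Many lysosomal genes carry in their promoters a sequence, a form of the E-box, that transcription factors of the TFEB and MITF family recognize, and mTORC1 holds TFEB in the cytoplasm when nutrients are plentiful.

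Library totals lay between 28189501 and 32499337 counts. Levels are given as CPM, counts scaled to a common library total, after TMM scaling over all 12 libraries, which corrects each total for differences in composition. All 51 genes passed the expression filter in every comparison, and the lowest, CTSH, had 129 to 307 counts per library. The cell line labels were set against marker genes. SOX10, a transcription factor of melanocytes, was at 166 to 579 CPM and MITF at 12.1 to 29.7 CPM, whereas the 5 pigmentation genes PMEL, MLANA, TYR, TYRP1 and DCT were under 5 CPM in every library of both lines. The 4 markers of melanoma and neural crest were well above this in both lines. S100B was at 56.8 to 106 CPM, S100A1 at 77.9 to 240, AXL at 174 to 277 and NGFR at 114 to 279. SK-MEL-28 is known as a line that expresses pigmentation genes, so the low level of those 5 genes goes against the label of those cultures. The name SK-MEL-28 stands here for the libraries labelled with it, every comparison between the lines rests on that label, and the identity of the cultures was not tested. The comparison within A375 does not use these libraries. All 4 epithelial markers were also under 5 CPM throughout. The lines were alike in expression: of 10422 genes over 10 CPM in the etoposide libraries of either line, 1 was over 10 CPM in A375 and under 0.5 CPM in SK-MEL-28, and 0 showed the opposite. Over 15475 genes with a mean above 1 CPM, the mean log2(CPM + 1) with etoposide had a Pearson correlation of 0.978 between the lines. Whether both labels stand for the same line was not tested, so a change found in both is not shown to be independent agreement. The summed level of 4 leukocyte markers was 16.7 to 17.6 CPM with etoposide and 6.17 to 7.61 CPM with rapamycin in A375, and 31.1 to 33.9 against 14.9 to 19.7 CPM in SK-MEL-28. Nearly all of it was LYZ, the secreted enzyme lysozyme, and PTPRC, CD3E and CD14 did not exceed 0.632 CPM in any library. The summed level of 3 endothelial markers was likewise lower with rapamycin, at 5.84 to 6.60 against 6.70 to 9.37 CPM in A375 and 3.49 to 3.97 against 4.70 to 5.98 CPM in SK-MEL-28, with CDH5 at most at 0.851 CPM. The part of these markers in the lysosomal results was not tested.

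To compare levels between genes, CPM was divided by the length in kilobases of the canonical transcript of GENCODE release 44. Averaged over the 12 libraries, the highest levels per kilobase were those of CD63, a tetraspanin of late endosomes and lysosomes (509.5 CPM per kb), and PSAP, the precursor of the saposins that present sphingolipids to their hydrolases (497 CPM per kb). Among the V-ATPase genes the highest were ATP6V0C, which encodes the proton-carrying ring subunit (235 CPM per kb), ATP6V0B, another ring subunit (173 CPM per kb), and ATP6V1F of the V1 sector (141 CPM per kb). CTSD, the aspartic protease cathepsin D, was the third among the hydrolases and membrane proteins, at 229.6 CPM per kb. The lowest of the 51 genes was CTSH, cathepsin H, at 3.38 CPM per kb. CD63 was at 519, 591 and 575 CPM in A375 with etoposide and 540.0, 521 and 559 CPM with etoposide + rapamycin, and at 478, 493 and 479 against 488, 522 and 492 CPM in SK-MEL-28. The groups overlapped in both lines, and CD63 did not pass the test in either line (-0.05 and 0.05 on the log2 scale).

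The letters CACGTG form the E-box, and TCACGTGA is an extended form of it, within which the shorter motif always lies. Both read the same on either strand. RefSeq promoters of GRCh38.p14, from 250 bases before to 50 bases after each gene's start, were available for 37 of the 51 genes, of which 10 were V-ATPase genes. The E-box was present in 12 of these 37 promoters (32.4%), against 7.43% of 27305 promoters of all genes, and the extended form in 7 (18.9%) against 1.04%. By class, the E-box was in 30.0% of the V-ATPase promoters and in 33.3% of the promoters of hydrolases and membrane proteins. A match describes these letters in this window and does not show that a factor binds there. The 5 promoters below were chosen as examples of E-box promoters of genes with different responses to rapamycin in A375, which are given further on: ATP6V1G1 and ATP6V0D1 were lower, CTSF and MCOLN1 were higher, and LAMP1 did not pass the test. The calls of ATP6V1G1, ATP6V0D1 and MCOLN1 were lost in some alternative analyses. The promoters are written 5′ to 3′ on the strand of the gene, with each E-box, or extended E-box where present, in capitals.
ATP6V1G1: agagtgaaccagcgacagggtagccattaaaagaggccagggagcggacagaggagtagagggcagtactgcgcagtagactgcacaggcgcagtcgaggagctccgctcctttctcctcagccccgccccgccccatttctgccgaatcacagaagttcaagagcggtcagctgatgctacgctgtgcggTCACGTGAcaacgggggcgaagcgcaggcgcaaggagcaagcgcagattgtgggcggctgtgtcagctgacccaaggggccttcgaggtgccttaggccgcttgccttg
ATP6V0D1: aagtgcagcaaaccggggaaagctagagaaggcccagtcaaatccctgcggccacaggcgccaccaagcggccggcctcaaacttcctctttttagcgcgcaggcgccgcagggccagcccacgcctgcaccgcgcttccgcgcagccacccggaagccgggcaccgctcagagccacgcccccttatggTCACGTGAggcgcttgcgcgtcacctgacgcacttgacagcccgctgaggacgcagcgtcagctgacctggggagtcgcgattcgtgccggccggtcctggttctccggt
CTSF: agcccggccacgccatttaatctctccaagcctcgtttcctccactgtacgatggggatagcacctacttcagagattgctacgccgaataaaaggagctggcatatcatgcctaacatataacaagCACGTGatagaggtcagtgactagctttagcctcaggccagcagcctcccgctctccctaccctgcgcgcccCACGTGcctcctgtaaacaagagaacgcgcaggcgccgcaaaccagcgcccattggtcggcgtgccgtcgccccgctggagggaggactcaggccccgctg
MCOLN1: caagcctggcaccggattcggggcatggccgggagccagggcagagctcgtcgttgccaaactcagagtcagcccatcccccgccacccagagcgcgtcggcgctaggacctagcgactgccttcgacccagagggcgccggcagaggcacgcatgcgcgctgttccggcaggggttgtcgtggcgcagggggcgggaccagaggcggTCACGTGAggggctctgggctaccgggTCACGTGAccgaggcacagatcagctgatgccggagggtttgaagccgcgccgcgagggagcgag
LAMP1: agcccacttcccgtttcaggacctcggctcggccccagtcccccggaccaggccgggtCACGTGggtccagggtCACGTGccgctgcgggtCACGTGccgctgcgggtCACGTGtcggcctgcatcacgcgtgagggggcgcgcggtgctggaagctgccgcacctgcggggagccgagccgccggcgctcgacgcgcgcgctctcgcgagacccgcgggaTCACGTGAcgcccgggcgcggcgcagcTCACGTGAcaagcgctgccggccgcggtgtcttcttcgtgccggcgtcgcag
These windows lie at chr9:114587519-114587818 (plus strand) for ATP6V1G1, chr16:67481108-67481407 (minus strand) for ATP6V0D1, chr11:66568557-66568856 (minus strand) for CTSF, chr19:7522374-7522673 (plus strand) for MCOLN1 and chr13:113296989-113297288 (plus strand) for LAMP1. The 2 V-ATPase promoters each hold 1 extended E-box at nearly the same place, whose CACGTG begins 58 bases before the start of ATP6V1G1 and 59 bases before that of ATP6V0D1. The CTSF promoter holds 2 plain E-boxes, the MCOLN1 promoter 2 extended ones, and the LAMP1 promoter 6 E-boxes, of which 2 are extended.

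The first question was what rapamycin added to etoposide in A375. Under the quasi-likelihood test of edgeR, with p-values adjusted by Benjamini-Hochberg across every gene tested, 32 of the 51 lysosomal genes were lower with rapamycin at an adjusted p under 0.05, 4 were higher and 15 did not pass. Among all 18844 genes tested, 13.8% were lower and 14.3% were higher, and among the 12639 with a mean of at least 100 counts, 18.8% were lower. In these bulk libraries a change in RNA per cell and a change in the share of cells in a given state cannot be told apart. The changes were small: 2 of the lower genes (ATP6V1A and CTSK) and 1 of the higher genes (CTSF) changed by more than 1.5-fold, where 2.80% of all genes tested were lower and 3.09% higher by that rule. The 3 libraries of each group did not overlap, with rapamycin lower, in 36 of the 51 genes, against 21.9% of all genes tested. In SK-MEL-28, 11 of the 51 genes were lower, 5 were higher and 35 did not pass, beside 10.1% lower and 8.83% higher among all 18897 genes tested and 13.3% lower among those with a mean of at least 100 counts. CTSF alone passed the 1.5-fold rule there, as higher, beside 1.85% of all genes higher and 3.14% lower by that rule. The groups did not overlap, with rapamycin lower, in 19 of the 51 genes in SK-MEL-28, against 18.2% of all genes tested.

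**Figure D1:**
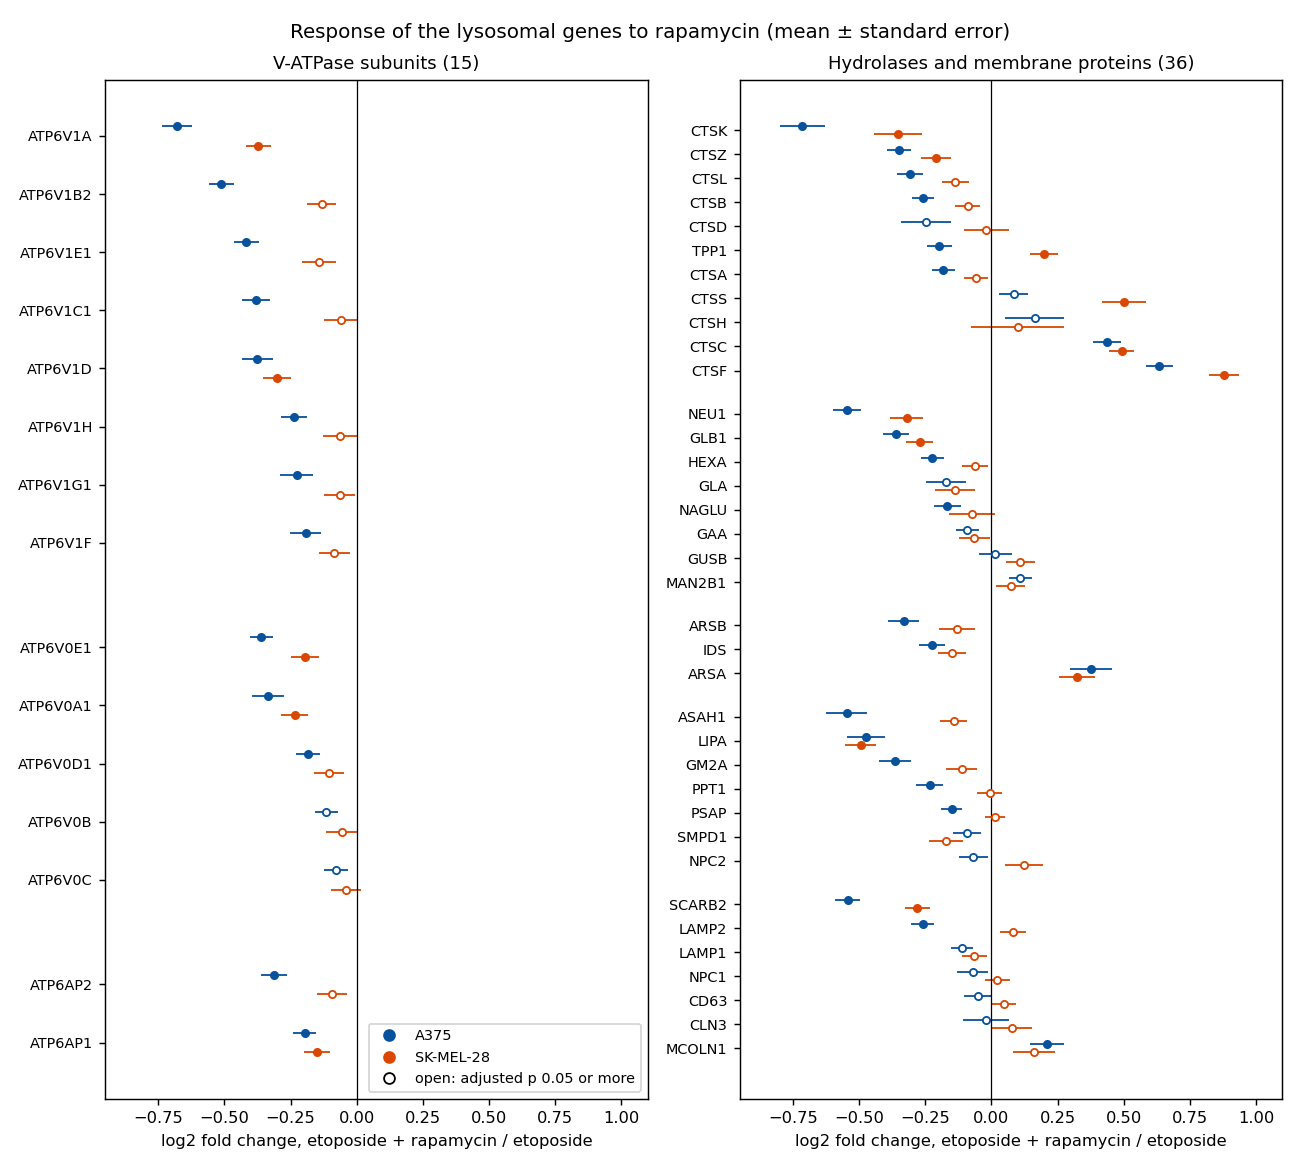
The log2 fold change of each of the 51 genes, etoposide + rapamycin over etoposide, in A375 (blue) and SK-MEL-28 (orange), with its standard error (n = 3 libraries per group); filled points have an adjusted p under 0.05 and genes are ordered within each functional group. All 15 V-ATPase genes lie left of 0 in both lines, whereas hydrolases and membrane proteins lie on both sides, from CTSK (-0.72 in A375) to CTSF (0.88 in SK-MEL-28).

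The V-ATPase genes and the other genes were then set side by side. In A375, 13 of the 15 V-ATPase genes (86.7%) were lower and 0 were higher, with a median log2 fold change of -0.31, while 19 of the 36 hydrolases and membrane proteins (52.8%) were lower and 4 were higher, with a median of -0.18. Over all genes tested the median was -0.01, with 13.8% lower and 14.3% higher, and the 4 higher of the 36 were 11.1%. In SK-MEL-28, 5 of the 15 V-ATPase genes (33.3%) were lower and 0 were higher (median -0.11). Of the 36 others 6 were lower (16.7%) and 5 higher (13.9%), with a median of -0.06. Over all genes the median was 0.01, with 10.1% lower and 8.83% higher. Among genes with a mean of at least 100 counts 13.3% were lower, near the share of the 36. The summed CPM of the 15 V-ATPase genes was 1936, 1988 and 1997 in the A375 libraries with etoposide and 1649, 1612 and 1582 with rapamycin, a change of -18.2% in the mean. In SK-MEL-28 the sums were 1939, 1941 and 1984 against 1734, 1828 and 1773, a change of -9.01%. The groups did not overlap in either line. The mean summed CPM of the 36 other genes changed by -9.51% with rapamycin in A375, where the groups did not overlap either, and differed by -0.593% in SK-MEL-28, where they overlapped. With the AC068580.4 row, which shares a locus with CTSD, added to the sum after seeing the data, these values were -9.15% and -1.68%. These sums weigh each gene by its level and were not tested.

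**Figure D2:**
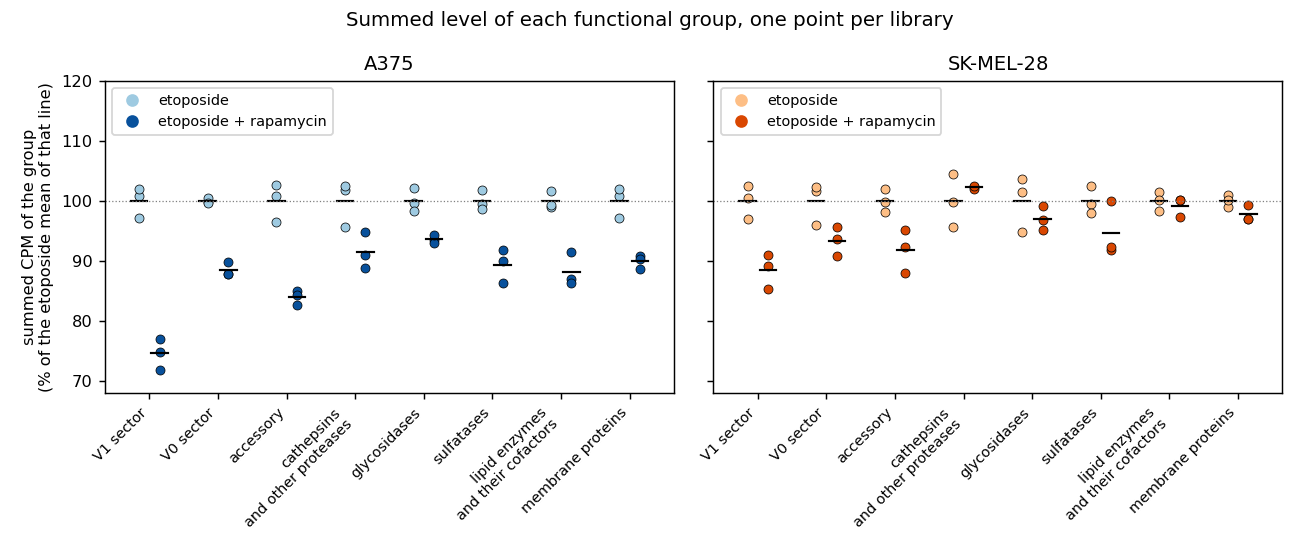
Summed CPM of each functional group in each library, as a percentage of the etoposide mean of that line (vertical axis starting at 68%); points are libraries, 3 per group, and horizontal bars are means. The V1 sector lies lowest with rapamycin in A375, at -25.4% from its etoposide mean, and in SK-MEL-28 the mean of the cathepsins and other proteases lies 2.30% above their etoposide mean, with overlapping libraries (-1.08%, also overlapping, when the AC068580.4 row of the CTSD locus is added).

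The 8 V1 genes among the 51 all fell in A375, between -0.19 (ATP6V1F) and -0.68 (ATP6V1A) on the log2 scale, beside 13.8% of all genes tested. ATP6V1A, the catalytic subunit that hydrolyses ATP, was at 207, 203 and 213 CPM with etoposide and 138, 132 and 118 CPM with etoposide + rapamycin in A375. In SK-MEL-28 it was at 225, 217 and 230.2 CPM against 177, 171 and 173 CPM. All 6 libraries with rapamycin were below all 6 without, and the 3 A375 libraries with rapamycin were the lowest of the 12. ATP6V1A was 1.60-fold lower in A375 (log2 fold change -0.68 ± 0.06 SE, adjusted p = 4.36e-06) and 1.29-fold lower in SK-MEL-28 (log2 fold change -0.37 ± 0.05 SE, adjusted p = 0.000175). ATP6V1B2, the B subunit that forms the catalytic head with the A subunit, was at 94.4, 91.1 and 97 CPM against 66.5, 66.9 and 64.1 CPM in A375, groups far apart, and at 105, 102 and 102 against 87.7, 96 and 97.9 CPM in SK-MEL-28, where they lay close together. It fell in A375 (log2 fold change -0.51 ± 0.05 SE, adjusted p = 1.09e-05) and did not pass in SK-MEL-28 (log2 fold change -0.13 ± 0.05 SE, adjusted p = 0.112).

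ATP6V1C1, the C subunit that links the peripheral stalks to the membrane sector, was at 78.3, 82.8 and 84.5 CPM against 60.7, 65.8 and 61.2 CPM in A375 and at 87.8, 74.1 and 77.6 against 73, 80.2 and 76.8 CPM in SK-MEL-28. Its groups were separate in A375 and overlapped in SK-MEL-28, where its change was -0.06 on the log2 scale (adjusted p = 0.566) after -0.38 in A375 (adjusted p = 0.000233). ATP6V1D, the D subunit of the central rotor, fell in both lines, with log2 fold changes of -0.38 and -0.30 (adjusted p = 0.000506 and 0.0019). Its CPM was 56.9, 60.7 and 54.3 against 45.4, 43.3 and 43.2 in A375 and 62.7, 61.6 and 58.3 against 49.2, 51.2 and 48 in SK-MEL-28, without overlap. ATP6V1F, the F subunit of the same rotor, was at 95.5, 104 and 101 CPM against 95, 83.4 and 84.3 CPM in A375, where 1 library with rapamycin came close to the lowest with etoposide. Its fall there (log2 fold change -0.19 ± 0.06 SE, adjusted p = 0.0276) was lost in 6 of 14 alternative analyses (adjusted p up to 0.119): with the low filter (1 count in any library), with the replicate block, and without etoposide + rapamycin replicate 2 or 3 or etoposide replicate 2 or 3. The remaining V1 genes, ATP6V1E1 and ATP6V1G1 of the peripheral stalks and ATP6V1H, a regulatory subunit, fell in A375, with log2 fold changes of -0.42, -0.23 and -0.24. They were at -0.14, -0.06 and -0.06 in SK-MEL-28 without passing. ATP6V1G1 lost its call in 4 of 14 alternatives (adjusted p up to 0.0821): with the low filter and without etoposide + rapamycin replicate 2 or etoposide replicate 2 or 3.

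Of the 5 genes of the membrane-embedded V0 sector among the 51, 3 fell in A375 and 2 of these also in SK-MEL-28. These were 60% and 40%, beside 13.8% and 10.1% of all genes tested. ATP6V0A1, the a1 subunit through which protons pass, was at 97.8, 83.9 and 87.5 CPM against 72.5, 71.6 and 68.3 CPM in A375 (log2 fold change -0.34 ± 0.06 SE, adjusted p = 0.00129). In SK-MEL-28 it was at 92.4, 88.6 and 83.5 against 74.7, 74.2 and 76.3 CPM (log2 fold change -0.23 ± 0.05 SE, adjusted p = 0.00653), and the groups did not overlap in either line. ATP6V0E1, a small V0 subunit, was at 119.6, 120.4 and 124 CPM against 92.1, 95.8 and 94.8 CPM in A375 and 139, 128 and 133 against 113, 119 and 117 CPM in SK-MEL-28, again without overlap. It fell in both, with log2 fold changes of -0.36 and -0.20 (adjusted p = 9.42e-05 and 0.0194), but in SK-MEL-28 not without etoposide + rapamycin replicate 1 or 3 or etoposide replicate 3 (adjusted p up to 0.0674). ATP6V0D1, which couples the rotor to the ring, fell in A375 (log2 fold change -0.18 ± 0.05 SE, adjusted p = 0.0105), though not without etoposide + rapamycin replicate 3 (adjusted p = 0.0608), and was at -0.11 in SK-MEL-28 (adjusted p = 0.229).

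In A375 the ring subunits ATP6V0C and ATP6V0B had the smallest changes of the 15 V-ATPase genes. ATP6V0C was at 259.8, 274 and 264 CPM against 262, 243 and 249.8 CPM in A375 and at 237, 267 and 271 against 246, 258 and 251 CPM in SK-MEL-28, and its groups overlapped in both lines. Its log2 fold changes were -0.08 (adjusted p = 0.239) and -0.04 (adjusted p = 0.69). ATP6V0B was at 187, 189 and 186 CPM against 168, 174 and 175 CPM in A375, groups that did not overlap, and at 153, 172 and 169 against 152, 169 and 155 CPM in SK-MEL-28. It changed by -0.11 (adjusted p = 0.0609) and -0.06 (adjusted p = 0.578), so it did not pass in either line. The accessory proteins ATP6AP1 and ATP6AP2, which take part in assembling the pump, fell in A375, with log2 fold changes of -0.20 and -0.31. ATP6AP1 also fell in SK-MEL-28, where it was at 181, 191 and 189 against 169, 172 and 165 CPM (log2 fold change -0.15 ± 0.05 SE, adjusted p = 0.047), a call lost in 7 of 14 alternatives (adjusted p up to 0.165), which included the replicate block, the low filter and leaving out any SK-MEL-28 library but etoposide replicate 1. In A375 it was at 197, 201 and 204 against 178, 173 and 172 CPM, with the groups apart. The count of ATP6V0C shares an assembled locus with the gene names TBC1D24 and AMDHD2, whose counts came to 13.1% and 21.4% of its own.

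The 11 cathepsins and other proteases changed in both directions. In A375, 6 fell (CTSA, CTSB, CTSK, CTSL, CTSZ and TPP1) and 2 rose (CTSC and CTSF), and in SK-MEL-28, 2 fell (CTSK and CTSZ) and 4 rose (CTSC, CTSF, CTSS and TPP1). In A375 54.5% were thus lower and 18.2% higher, beside 13.8% and 14.3% of all genes tested. For SK-MEL-28 the shares were 18.2% and 36.4%, beside 10.1% and 8.83%. CTSF, the cysteine protease cathepsin F, was at 70.8, 76.5 and 76.4 CPM with etoposide and 116, 119 and 111 CPM with rapamycin in A375. In SK-MEL-28 it was at 35.3, 34.5 and 34 against 63.1, 61.5 and 66.5 CPM, so that even with rapamycin its level in SK-MEL-28 stayed below that of A375 with etoposide alone. CTSF rose 1.55-fold in A375 (log2 fold change 0.63 ± 0.05 SE, adjusted p = 3.22e-06) and 1.84-fold in SK-MEL-28 (log2 fold change 0.88 ± 0.06 SE, adjusted p = 5.6e-07), the largest increase among the 51 genes in each line. CTSC, cathepsin C, which activates granule serine proteases in immune cells, was at 219, 230.1 and 251 CPM against 312, 324 and 307 CPM in A375 and 226, 233 and 234 against 321, 335 and 320.3 CPM in SK-MEL-28. Its libraries with rapamycin were above all those without in both lines, and it rose by 0.44 and 0.49 on the log2 scale (adjusted p = 8.89e-05 and 1.33e-05).

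CTSK, the collagen-degrading cathepsin K, was the hydrolase that fell most in A375. It was at 28.8, 30.0 and 32.8 CPM against 20.0, 17.9 and 17.8 CPM in A375 and at 20.6, 19.7 and 22.3 against 17.6, 15.3 and 16.3 CPM in SK-MEL-28, with no overlap in either line. CTSK was 1.64-fold lower in A375 (log2 fold change -0.72 ± 0.09 SE, adjusted p = 7.47e-05) and 1.28-fold lower in SK-MEL-28 (log2 fold change -0.35 ± 0.09 SE, adjusted p = 0.017), the latter lost without etoposide + rapamycin replicate 2 or 3 or etoposide replicate 3 (adjusted p up to 0.095). CTSZ, the carboxypeptidase cathepsin Z, was at 343, 369 and 370.3 CPM against 278, 281 and 287 CPM in A375 and 353, 371 and 403 against 342, 318 and 316 CPM in SK-MEL-28. Its groups were apart by a wide margin in A375 and by a narrow one in SK-MEL-28, and its log2 fold changes were -0.35 and -0.21 (adjusted p = 0.000127 and 0.0212), the latter lost with the low filter and without etoposide + rapamycin replicate 2 or 3 or etoposide replicate 3 (adjusted p up to 0.134). CTSB and CTSL, broadly expressed cysteine proteases, and CTSA, a carboxypeptidase that also stabilizes the enzymes encoded by NEU1 and GLB1, fell in A375, with log2 fold changes of -0.26, -0.31 and -0.18. The call of CTSA was lost without etoposide + rapamycin replicate 2 (adjusted p = 0.0535). In SK-MEL-28 these 3 genes were at -0.09, -0.14 and -0.06 and did not pass. CTSH did not pass in either line (0.16 and 0.10, with SE 0.11 and 0.17).

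TPP1, tripeptidyl peptidase 1, was the gene that changed in opposite directions. In A375 it was at 175, 162 and 172 CPM with etoposide and 152, 143 and 147 CPM with rapamycin, all 3 of the latter below the former. In SK-MEL-28 it was at 183, 169 and 166 CPM against 200.4, 199 and 197 CPM, all 3 of the latter above the former. It fell in A375 (log2 fold change -0.20 ± 0.05 SE, adjusted p = 0.00804) and rose in SK-MEL-28 (log2 fold change 0.20 ± 0.05 SE, adjusted p = 0.0182), the rise being lost without etoposide replicate 2 or 3 (adjusted p up to 0.0965). Of all 18140 genes tested in both lines, 0.436% passed in opposite directions. CTSS, cathepsin S, known from antigen presentation, was at 76.2, 80.0 and 84.9 CPM against 82.2, 89.4 and 83 CPM in A375, overlapping groups, and at 27.7, 25.3 and 24 against 33.1, 38.7 and 37.3 CPM in SK-MEL-28, separate groups. It rose in SK-MEL-28 (log2 fold change 0.50 ± 0.08 SE, adjusted p = 0.00102) and did not pass in A375 (log2 fold change 0.08 ± 0.06 SE, adjusted p = 0.292).

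**Figure D3:**
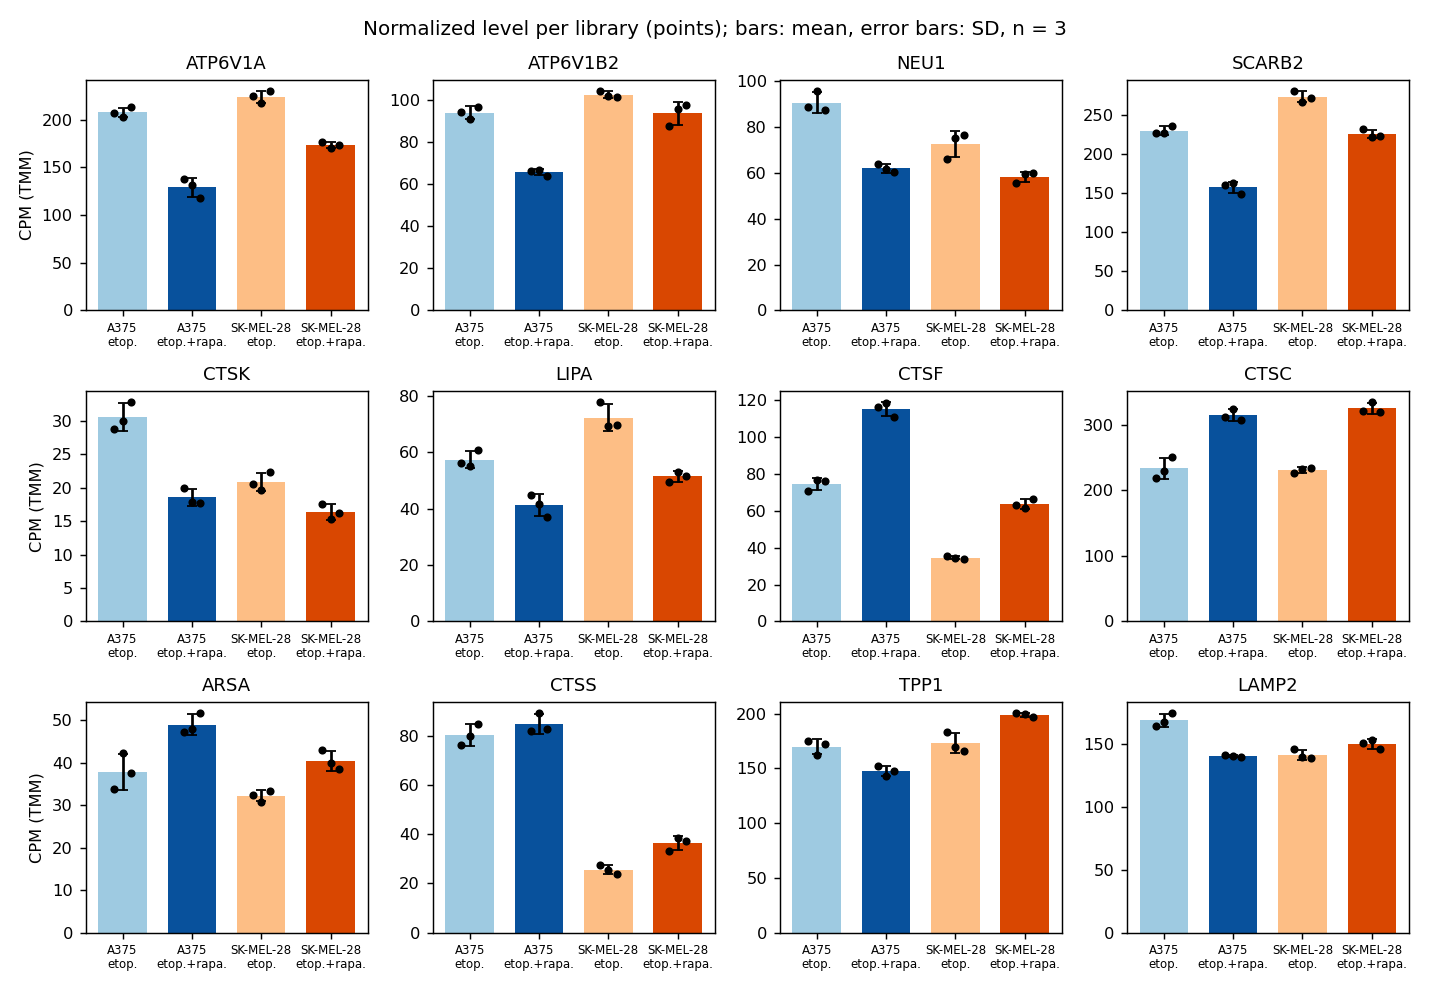
CPM of 12 lysosomal genes in each library (points), with the group mean (bar) and SD (error bar, n = 3); every vertical axis starts at 0. ATP6V1A, NEU1, SCARB2, CTSK and LIPA are lower with rapamycin in both lines, CTSF, CTSC and ARSA are higher in both, and TPP1 is lower in A375 and higher in SK-MEL-28.

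CTSD, the aspartic protease named above, was at 389.6, 458 and 415 CPM with etoposide and 411, 297 and 352 CPM with rapamycin in A375, and at 487, 659.6 and 533 against 556, 543 and 560.1 CPM in SK-MEL-28. The groups overlapped in both lines and CTSD did not pass (log2 fold change -0.25 ± 0.09 SE, adjusted p = 0.0694 in A375 and log2 fold change -0.02 ± 0.08 SE, adjusted p = 0.904 in SK-MEL-28). A neighbouring row, AC068580.4, which the authors' assembly placed in the same locus, was at 142, 67.4 and 123 CPM against 57.2, 178 and 146 CPM in A375 and at 160.4, 57.7 and 177 against 52.5, 56.2 and 51.3 CPM in SK-MEL-28. It was low in the libraries of a group where CTSD was high, such as replicate 2 of A375 with etoposide. The sum of both rows varied less between replicates than CTSD alone, with an SD of 6.65 CPM against 34.3 CPM in A375 with etoposide and 38.5 CPM against 89.5 CPM in SK-MEL-28 with etoposide. When both rows were summed, an analysis chosen after seeing the data, the sum fell in A375 (log2 fold change -0.14 ± 0.04 SE, adjusted p = 0.0237) and in SK-MEL-28 (-0.19 ± 0.05 SE, adjusted p = 0.0139). How the authors' counting divided reads between these names is not given in the sources used here, and its part in the result was not tested.

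**Figure D4:**
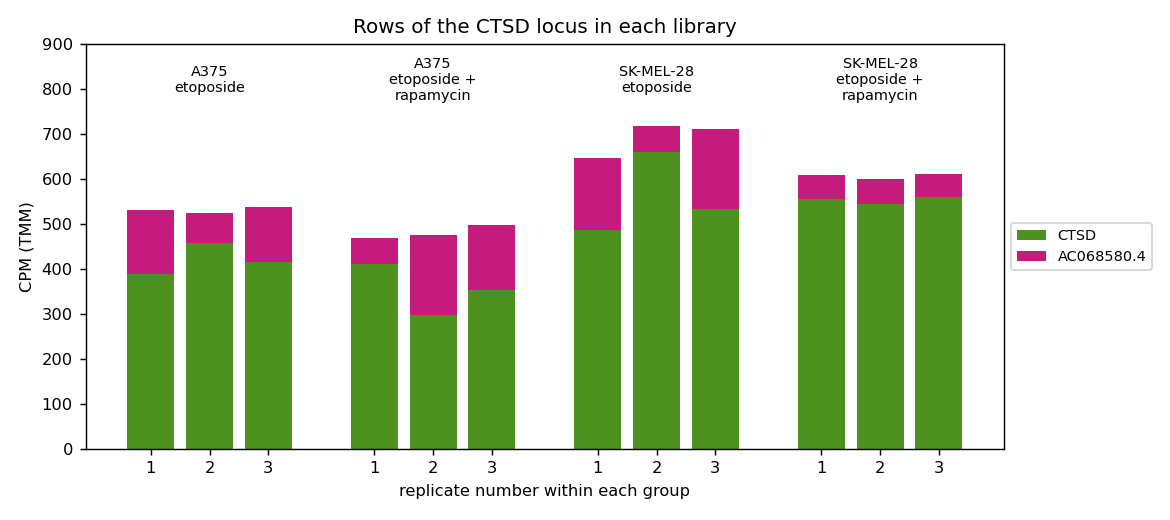
CPM of the CTSD row (green) and of the AC068580.4 row of the same locus (pink), stacked, in each of the 12 libraries. The CTSD row varies between 297 and 660 CPM, and the stacked height has a smaller SD than the CTSD row in each of the 4 groups.

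Among the 8 glycosidases, which remove sugars from glycoproteins, glycolipids and glycosaminoglycans, 4 fell in A375 and 2 of these also in SK-MEL-28, and 0 rose. The lower genes were 50% and 25%, beside 13.8% and 10.1% of all genes tested. NEU1, the sialidase, was at 88.7, 96 and 87.7 CPM against 64.1, 61.6 and 60.4 CPM in A375 and at 66.1, 75.3 and 76.6 against 55.7, 59.3 and 59.9 CPM in SK-MEL-28. Its groups were apart in both lines, and NEU1 fell in both, with log2 fold changes of -0.54 and -0.32 (adjusted p = 1.47e-05 and 0.0033). GLB1, the beta-galactosidase whose activity at raised pH is used as a stain for senescent cells, was at 88.4, 93 and 87.7 CPM against 69.2, 71.4 and 68.2 CPM in A375 and at 88.4, 97.2 and 92 against 74.7, 78.6 and 77.3 CPM in SK-MEL-28. It too had separate groups and fell in both lines, with log2 fold changes of -0.36 and -0.27 (adjusted p = 0.000181 and 0.00286). HEXA, the alpha subunit of beta-hexosaminidase, and NAGLU, a heparan sulfate glucosaminidase, fell in A375, with log2 fold changes of -0.22 and -0.17. In SK-MEL-28 they were at -0.06 and -0.07 and did not pass. The call of NAGLU was lost in 7 of 14 alternatives (adjusted p up to 0.126), which included the replicate block, the fit of all libraries and leaving out any A375 library but etoposide replicate 1 or etoposide + rapamycin replicate 3. The counts of COASY, another name in the locus of NAGLU, came to 181% of its own. Those of PARP6 came to 24.3% of the counts of HEXA, those of TMPPE to 10.85% of GLB1 and those of WDR83OS to 44.5% of MAN2B1. How reads were divided between the names in these loci, and the part of that division in the changes of these genes, were not tested. GLA (alpha-galactosidase), GAA (acid alpha-glucosidase), GUSB (beta-glucuronidase) and MAN2B1 (alpha-mannosidase) did not pass in either line , with log2 fold changes from -0.17 (GLA) to 0.11 (MAN2B1) in A375 and from -0.14 (GLA) to 0.11 (GUSB) in SK-MEL-28.

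The 3 sulfatases differed in direction. ARSA, arylsulfatase A, which acts on sulfatide, was at 33.8, 42.3 and 37.5 CPM against 47.2, 48 and 51.7 CPM in A375 and 32.4, 30.8 and 33.4 against 42.9, 39.8 and 38.5 CPM in SK-MEL-28, with every library with rapamycin above those without. It rose by 0.38 in A375 (adjusted p = 0.00345) and by 0.32 in SK-MEL-28 (adjusted p = 0.00539). ARSB (arylsulfatase B) and IDS (iduronate 2-sulfatase), which act on glycosaminoglycans, fell in A375, with log2 fold changes of -0.33 and -0.22, and were at -0.13 and -0.15 in SK-MEL-28 without passing.

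Of the 7 lipid enzymes and their cofactors, 5 fell in A375, 1 fell in SK-MEL-28 and 0 rose. The lower genes were 71.4% in A375, beside 13.8% of all genes tested. In SK-MEL-28 they were 14.3%, near the 10.1% of all genes. LIPA, the acid lipase that frees cholesterol from its esters, was the gene of this group that fell in both lines. It was at 56.2, 55 and 60.9 CPM against 44.7, 41.7 and 37.1 CPM in A375 (log2 fold change -0.47 ± 0.07 SE, adjusted p = 0.000418) and at 77.9, 69.2 and 69.6 against 49.5, 53.1 and 51.6 CPM in SK-MEL-28 (log2 fold change -0.49 ± 0.06 SE, adjusted p = 8.38e-05), without overlap. LIPA had the largest fall of the 51 genes in SK-MEL-28. ASAH1, acid ceramidase, was at 47.1, 50.2 and 48.7 CPM against 35.6, 34.9 and 29.1 CPM in A375 and at 59.2, 58.5 and 57.5 against 52.5, 54.4 and 52.1 CPM in SK-MEL-28. The groups did not overlap in either line, but the distance was small in SK-MEL-28, and ASAH1 fell in A375 (log2 fold change -0.55 ± 0.08 SE, adjusted p = 0.000259) and did not pass in SK-MEL-28 (log2 fold change -0.14 ± 0.05 SE, adjusted p = 0.0654).

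PPT1, palmitoyl-protein thioesterase 1, was at 197, 212 and 191 CPM against 175, 169.9 and 164 CPM in A375, separate groups (log2 fold change -0.23 ± 0.05 SE, adjusted p = 0.00467). In SK-MEL-28 it was at 232, 226 and 222 against 222, 234 and 223 CPM, overlapping groups (log2 fold change -0.01 ± 0.05 SE, adjusted p = 0.943). PSAP, with the highest CPM of the 51 genes, was at 1446, 1474 and 1448 CPM against 1347, 1286 and 1287 CPM in A375 and at 1309.5, 1371 and 1348 against 1381, 1364 and 1331 CPM in SK-MEL-28. It fell in A375 (log2 fold change -0.15 ± 0.04 SE, adjusted p = 0.0114), a call lost in 1 of 14 alternatives, without A375 etoposide + rapamycin replicate 2 (adjusted p = 0.066), and was at 0.01 in SK-MEL-28. GM2A, the GM2 activator that serves beta-hexosaminidase, fell in A375 (log2 fold change -0.37 ± 0.06 SE, adjusted p = 0.000784) and was at -0.11 in SK-MEL-28 (adjusted p = 0.201). SMPD1, acid sphingomyelinase, and NPC2, a soluble cholesterol carrier, did not pass in either line (-0.09 and -0.07 in A375, -0.17 and 0.12 in SK-MEL-28).

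Among the 7 membrane proteins, A375 had 2 that fell and 1 that rose, and SK-MEL-28 had 1 that fell. In A375 28.6% were thus lower, beside 13.8% of all genes tested, and 14.3% higher, the same as over all genes. The 14.3% lower in SK-MEL-28 is near the 10.1% of all genes. SCARB2, the receptor that carries glucocerebrosidase to the lysosome, was at 227, 228 and 237 CPM against 160.3, 163 and 149.6 CPM in A375 and at 282, 267 and 273 against 232, 223 and 223 CPM in SK-MEL-28. Its groups were apart in both lines, and SCARB2 fell in both, with log2 fold changes of -0.54 (adjusted p = 6.92e-06) and -0.28 (adjusted p = 0.00139). LAMP2, a major glycoprotein of the lysosomal membrane with a part in autophagosome fusion and chaperone-mediated autophagy, was at 165, 167 and 175 CPM against 142, 140.2 and 140.1 CPM in A375 and at 146, 140.2 and 139 against 151, 154 and 146 CPM in SK-MEL-28. It fell in A375 (log2 fold change -0.26 ± 0.04 SE, adjusted p = 0.000863) and did not pass in SK-MEL-28 (log2 fold change 0.08 ± 0.05 SE, adjusted p = 0.294). LAMP1, its close relative, was at -0.11 in A375 (adjusted p = 0.0598) and -0.06 in SK-MEL-28 (adjusted p = 0.378). MCOLN1, the calcium channel of the lysosomal membrane, rose by 0.21 in A375 (adjusted p = 0.0296) and was at 0.16 in SK-MEL-28 (adjusted p = 0.191). That call was lost in 7 of 14 alternatives (adjusted p up to 0.0971): with library totals, the low filter or the replicate block, and without any of the 3 etoposide + rapamycin libraries or etoposide replicate 1. The counts of PNPLA6 in the locus of MCOLN1 came to 567% of its own. NPC1, the cholesterol exporter, and CLN3 did not pass in either line (-0.07 and -0.02 in A375, 0.02 and 0.08 in SK-MEL-28).

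Across both lines, 11 of the 51 genes were lower in both, 3 were higher in both (CTSC, CTSF and ARSA), 20 were lower in A375 alone, MCOLN1 was higher in A375 alone, CTSS was higher in SK-MEL-28 alone, TPP1 was opposite and 14 passed in neither. Of all genes tested in both lines, 5.57% were lower in both and 5.26% were higher in both. A pass in A375 alone is not itself a difference between the lines, so the difference was tested in a fit of all 12 libraries. The log2 fold change was lower in A375 than in SK-MEL-28 in 45 of the 51 genes and in all 15 V-ATPase genes. The share of all genes with that sign was not counted. The median difference, SK-MEL-28 minus A375, was 0.15 over the 51 genes and 0.02 over all genes tested. The response differed at an adjusted p under 0.05 in 10 genes, each with the more negative or less positive change in A375, and in 0 genes in the other direction, beside 2.66% and 2.97% of all 20101 genes tested. These 10 were the V1 genes ATP6V1A (0.32, SK-MEL-28 minus A375 on the log2 scale), ATP6V1B2 (0.39) and ATP6V1C1 (0.33), the proteases TPP1 (0.40) and CTSS (0.43), the lipid genes ASAH1 (0.41), PPT1 (0.23) and PSAP (0.17), and the membrane proteins LAMP2 (0.35) and SCARB2 (0.27). TPP1 had the smallest adjusted p (0.00222), followed by LAMP2 (0.0028), ATP6V1B2 (0.00432) and ASAH1 (0.0151). Those 4 genes kept their call in all 19 alternatives at the same threshold. ATP6V1A lost it with the replicate block and without A375 etoposide replicate 3 or SK-MEL-28 etoposide replicate 2 (adjusted p up to 0.0575). SCARB2 lost it under the same 3 and without A375 etoposide + rapamycin replicate 3 (up to 0.061), and CTSS in those 4 cases and without SK-MEL-28 etoposide + rapamycin replicate 2 or etoposide replicate 3 (up to 0.0554). ATP6V1C1 lost it in 11 alternatives, and PPT1 and PSAP in 15 each, with leaving out most of the libraries among them (adjusted p up to 0.136). The genes not called, among them ATP6V1E1 (0.28 ± 0.08 SE, adjusted p = 0.0547) and CTSF (0.25 ± 0.07 SE, adjusted p = 0.0554), are not shown to respond alike.

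The lines were also compared under etoposide alone, with the same etoposide libraries that serve as controls above. In SK-MEL-28, 8 of the 51 genes were higher and 18 were lower than in A375, beside 15.2% and 16.5% of all 19025 genes tested. Of the V-ATPase genes 14 of 15 did not pass, and ATP6V0B was lower (log2 fold change -0.19 ± 0.05 SE, adjusted p = 0.0185). That call was lost without A375 etoposide replicate 2 or SK-MEL-28 etoposide replicate 1 (adjusted p up to 0.0619). The summed CPM of the V-ATPase genes under etoposide (mean ± SD, n = 3) came to 1974 ± 32.6 for A375 and 1955 ± 25.05 for SK-MEL-28. The hydrolases and membrane proteins held the other 25 genes that passed. Beyond 1.5-fold, 3 were lower in SK-MEL-28 and 0 were higher, beside 7.32% and 5.70% of all genes tested. These 3 were the cathepsins CTSS (3.13-fold lower, log2 fold change -1.65 ± 0.07 SE, adjusted p = 2.48e-09), CTSF (2.15-fold lower, log2 fold change -1.11 ± 0.06 SE, adjusted p = 2.19e-08) and CTSH (1.78-fold lower, log2 fold change -0.83 ± 0.15 SE, adjusted p = 0.00073). The genes higher in SK-MEL-28 were CTSD, GLA, PPT1, LIPA, ASAH1, LAMP1, SCARB2 and NPC1, by 0.18 (NPC1 and PPT1) to 0.41 (CTSD) on the log2 scale. Of the 26 calls between the lines, 8 were lost in some alternatives: ATP6V0B, CTSB, GUSB, PPT1, GM2A, NPC2, NPC1 and MCOLN1.

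Of the 12 genes with an E-box in the promoter window, 4 were lower with rapamycin in A375 (ATP6V1G1, ATP6V0D1, CTSA and NEU1), 2 were higher (CTSF and MCOLN1) and 6 did not pass (ATP6V0B, CTSD, GAA, LAMP1, CD63 and CLN3). The lower genes were 33.3% of the 12 and the higher ones 16.7%, beside 13.8% and 14.3% of all genes tested. Of the 25 genes without one, 16 were lower (64%), 1 was higher (CTSC) and 8 did not pass. The calls of ATP6V1G1, ATP6V0D1, CTSA and MCOLN1 among the E-box genes were lost in some alternative analyses. Among the 25 without one, that of ATP6V1F was. In SK-MEL-28, 1 of the 12 was lower (NEU1) and 1 higher (CTSF), 8.33% in each direction, close to the 10.1% lower and 8.83% higher among all genes tested. Of the 25 others, 7 were lower (28%) and 2 higher (8%), with the calls of ATP6AP1, CTSZ and TPP1 among them lost in some alternatives. CTSD is counted here by its own row, although its sum with the AC068580.4 row was called lower in both lines. The counts of E-box genes were not tested.

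Other genes of the lysosome, from lists that do not overlap with the 51, are given by their counts, to be read beside the shares of all genes tested, 13.8% lower and 14.3% higher in A375 and 10.1% lower and 8.83% higher in SK-MEL-28. Of 15 tested genes for other V-ATPase subunits and assembly factors, 2 were lower (VMA21 and DMXL2) and 0 higher in A375. In SK-MEL-28, 1 was lower (DMXL2) and 1 higher (ATP6V0A2, a V0 gene outside the 51). The 13.3% lower in A375 is near the share of all genes. ATP6V0A2 was at 23.93, 26.93 and 25.85 CPM with etoposide and 31.99, 31.73 and 34.65 CPM with rapamycin in SK-MEL-28, without overlap. Its groups overlapped in A375, where it did not pass. The response was called higher in SK-MEL-28 than in A375 for ATP6V0A2 and VMA21. The V1 genes of this list that were tested (ATP6V1B1, ATP6V1C2, ATP6V1E2 and ATP6V1G2) passed in neither line, at log2 fold changes of 0.48, -0.16, 0.16 and 0.22 in A375, with ATP6V1E2 at 6.72, 4.81 and 6.60 CPM against 5.60, 6.87 and 7.68 CPM, overlapping groups. In A375 ATP6V1B1 was at 0.687 to 1.65 CPM and ATP6V1G2 at 0.404 to 1.01 CPM, near the floor, and ATP6V1C2 at 3.26 to 4.48 CPM. Of 25 other lysosomal hydrolases, 10 were lower (40%) and 4 higher (16%) in A375, and 6 were lower (24%) and 4 higher (16%) in SK-MEL-28. Those past 1.5-fold in A375 were the cathepsin CTSV (log2 fold change 1.55, adjusted p = 0.000412) and the iduronidase IDUA (log2 fold change 0.65, adjusted p = 3.88e-06), which rose, and the phosphatase ACP5 (log2 fold change -0.70, adjusted p = 9.03e-05), which fell. CTSV was near the floor, at 0.918, 1.31 and 1.23 CPM against 2.80, 3.47 and 3.79 CPM in A375. Its response was called lower in SK-MEL-28 than in A375. Of 17 other lysosomal membrane proteins, 5 were lower (29.4%) and 3 higher (17.6%) in A375 and 2 lower (11.8%) and 3 higher (17.6%) in SK-MEL-28. The sialic acid exporter SLC17A5 was past 1.5-fold lower in A375 (-0.74, adjusted p = 4.58e-05), and CD68, a macrophage-associated lysosomal glycoprotein, rose past it in SK-MEL-28 (0.64, adjusted p = 0.0384) with overlapping groups. Of 10 genes for tagging and sorting hydrolases by mannose 6-phosphate, 4 were lower (40%) and 4 higher (40%) in A375, with the sorting receptor SORT1 past 1.5-fold (-0.63, adjusted p = 2.26e-05), and 3 were lower (30%) and 2 higher (20%) in SK-MEL-28. Of 3 tested cystatins, inhibitors of cathepsins, 0 passed in A375 and CST3 rose in SK-MEL-28 (0.20, adjusted p = 0.0416).

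The complex that ties the V-ATPase to mTORC1 was measured as 9 genes of Ragulator and the Rag GTPases. In A375, 5 fell (LAMTOR3, LAMTOR5, RRAGA, RRAGC and RRAGD, 55.6%) and 0 rose, beside 13.8% lower and 14.3% higher among all genes tested. LAMTOR3 was past 1.5-fold (-0.61, adjusted p = 0.000126). In SK-MEL-28, 1 of the 9 passed, RRAGA, which fell (-0.26, adjusted p = 0.00305). That is 11.1%, near the 10.1% of all genes tested. The response of LAMTOR3 (0.43, SK-MEL-28 minus A375) and RRAGC (0.47) differed between the lines (adjusted p = 0.016 and 0.00975). These were 22.2%, beside 2.66% of all genes tested. Of the 4 genes of the TFEB family of transcription factors, MITF fell in both lines (-0.51 and -0.50, adjusted p = 0.00248 and 0.0032) and the other 3 passed in neither.

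**Figure D5:**
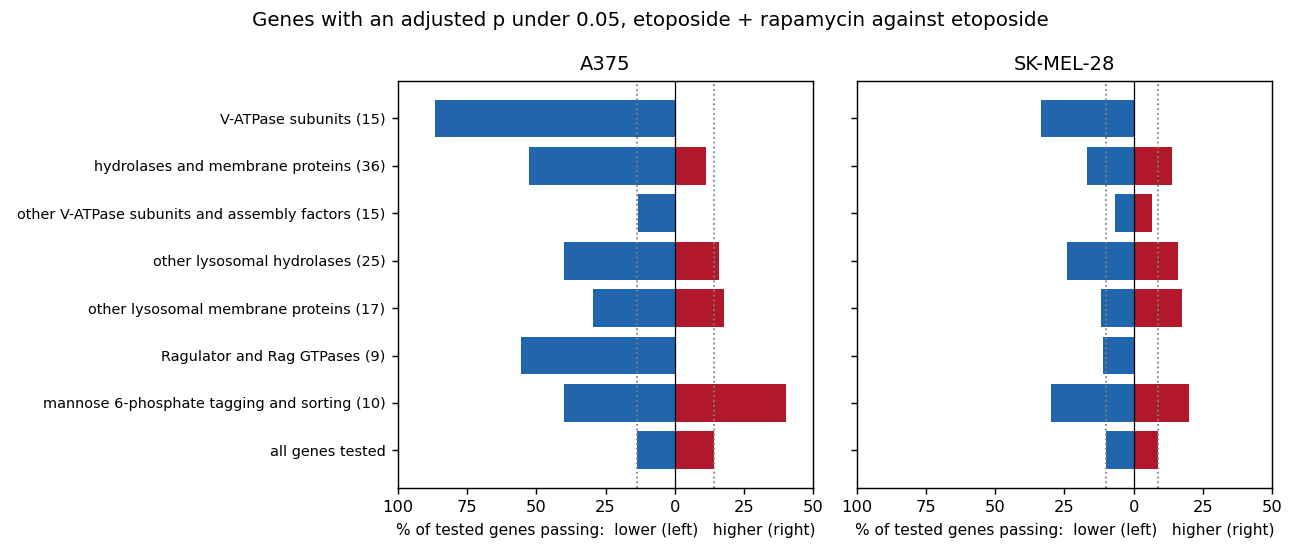
Percentage of tested genes with an adjusted p under 0.05 that were lower (bars to the left) or higher (bars to the right) with rapamycin in A375 and SK-MEL-28, for the V-ATPase subunits, the hydrolases and membrane proteins, 5 other lists of lysosomal genes and all genes tested, with the number tested in brackets; dotted lines mark the shares over all genes. In A375 the bar of lower genes reaches 86.7% for the V-ATPase subunits and 13.8% for all genes tested.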

How the data were processed

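RNA of 12 cultures of A375 and SK-MEL-28 was sequenced from polyA-enriched libraries, 3 biological replicates per group according to the study's methods. The authors deposited raw counts per gene and library, made by mapping clean reads to GRCh38 with HISAT2 and estimating expression with StringTie and the Ensembl release 90 annotation, without normalization and with each replicate kept apart. The step from StringTie's coverage to counts is not given in the sources used here. StringTie merged some neighbouring genes into loci: 11 of the 51 genes share a locus with another name, 7 of them with a name whose counts exceed 10% of their own. Rows that name no gene (5 of 58312) carried between 0.00099% and 0.0053% of the counts and were left out.

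Tests used edgeR 4.0.16 in R 4.3.3 (filterByExpr with a minimum count of 10, TMM, glmQLFit and glmQLFTest, two-sided) with p-values adjusted by Benjamini-Hochberg across every gene tested, and a gene was called at an adjusted p under 0.05. Each cell line was fitted alone, the lines under etoposide in a fit of those 6 libraries, and the difference of the responses in a fit of all 12 libraries. A p-value measures the spread between these replicate libraries only. Standard errors were obtained from the log2 fold change and the square root of its F statistic. The same results were recomputed with DESeq2 1.42.0, with RLE size factors or plain library totals in edgeR, with a low filter (1 count in any library) or a high one (10 counts in every library), on halved counts, in a fit of all libraries, with a block for the replicate number, with a fold change over 1.5 required too, and without each library in turn. Summing CTSD with AC068580.4, in the tests and in the group sums, and leaving out genes that share a locus were chosen after seeing the data. Gene positions and transcript lengths came from GENCODE release 44, in which all 51 genes were matched, and promoters from RefSeq. The canonical transcript was chosen after levels over the union of a gene's exons had been seen. With that union ATP6V0E1 took the place of ATP6V0B among the 3 V-ATPase genes with the highest level per length, and PSAP (439 CPM per kb) stood above CD63 (215 CPM per kb).

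The 51 genes, their classes, the marker lists and the other lysosomal lists were chosen with earlier results of these data known, so no list was tested as a set. Values in each library are given for genes past 1.5-fold in a rapamycin comparison, genes called in both lines, genes whose response differed between the lines, and the 3 genes of each class with the highest level per length. CTSD was singled out after its values were seen.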

Additional observations from a re-analysis of the deposited data

Results flagged for a closer look

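A different response to rapamycin in the 2 lines was found in 10 genes by the test of the difference itself (edgeR's quasi-likelihood test on all 12 libraries, Benjamini-Hochberg adjusted p under 0.05). The log2 fold change in SK-MEL-28 minus that in A375 was 0.32 for ATP6V1A, 0.39 for ATP6V1B2 and 0.33 for ATP6V1C1, all V1 genes of the V-ATPase. It was 0.43 for CTSS and 0.40 for TPP1 among the proteases, and 0.23 for PPT1, 0.41 for ASAH1 and 0.17 for PSAP among the lipid genes. Among the membrane proteins it was 0.35 for LAMP2 and 0.27 for SCARB2. With the replicate block 4 genes passed, and with any single library left out 4 to 10 did. The remaining genes are not shown to respond alike in both lines.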

How the results depend on the processing

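No called gene changed direction in any alternative at the same threshold, and 29 of the 36 calls in A375, 11 of 16 in SK-MEL-28, 4 of 10 for the difference between the lines and 18 of 26 between the lines under etoposide passed in all of them (14 alternatives, 19 for the difference). Requiring a fold change over 1.5 as well left 1 higher and 2 lower genes in A375, 1 higher and 0 lower in SK-MEL-28, 0 for the difference, and 0 higher and 3 lower between the lines. With library totals the V-ATPase median in A375 was -0.36 in place of -0.31, and the share of higher genes among all genes called went from 50.8% (2691 higher, 2604 lower) to 39.7% (2213 and 3364) in A375 and from 46.6% (1668 and 1914) to 35.98% (1337 and 2379) in SK-MEL-28. DESeq2 called 15 genes for the difference in place of 10, and for 0 of the 51 genes in the opposite direction. When CTSD and AC068580.4 were summed, the difference between the lines turned from 0.24 to -0.0429 on the log2 scale (adjusted p = 0.757, against 0.409 for CTSD alone). Leaving out each library in turn gave V-ATPase medians of -0.33 to -0.29 in A375 and 0.12 to 0.19 for the difference, medians of the hydrolases and membrane proteins in SK-MEL-28 of -0.09 to -0.03 (-0.06 with all libraries), 7 to 12 lower genes in SK-MEL-28 and 4 to 10 genes for the difference. That median was -0.09 without SK-MEL-28 etoposide replicate 1 and -0.03 without SK-MEL-28 etoposide replicate 2 or 3 or SK-MEL-28 etoposide + rapamycin replicate 1. The count of lower genes in SK-MEL-28 was 7 without SK-MEL-28 etoposide + rapamycin replicate 3 and 7 without SK-MEL-28 etoposide replicate 3. The count for the difference was 4 without A375 etoposide replicate 3 or SK-MEL-28 etoposide replicate 2, 5 without A375 etoposide + rapamycin replicate 3, and 6 without SK-MEL-28 etoposide + rapamycin replicate 2 or SK-MEL-28 etoposide replicate 3. In the group pairs compared, deviations from the group means correlated at -0.06 to 0.07 between same-numbered libraries. Between differently numbered ones they correlated at -0.05 to 0.05. With 3 libraries per group this cannot show whether replicates were paired. With the replicate number as a block (replicate block) 4 genes passed for the difference, with 30 lower and 3 higher genes in A375 and 10 lower and 5 higher in SK-MEL-28. The cause of these shifts was not tested. With 3 libraries per group, changes well under 1.5-fold pass only where replicates lie close together, and a gene that did not pass is not shown to be unaffected.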
